A study of Homo sapiens with 4 samples.

Results

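The genes described here encode the nuclear subunits of the mitochondrial respiratory chain, complexes I to IV. They were chosen by symbol alone: names of the NDUFA, NDUFB, NDUFC, NDUFS and NDUFV series for complex I, SDHA to SDHD for complex II, names that begin with UQCR for complex III, and the COX4 to COX8 names for complex IV. The rule found 64 of the 17894 genes in the expression table, 37 in complex I, 4 in complex II, 8 in complex III and 15 in complex IV. Complexes I and II pass electrons from NADH and succinate to ubiquinone, complex III passes them on to cytochrome c, and complex IV hands them to oxygen. Complexes I, III and IV pump protons across the inner mitochondrial membrane, and ATP synthase uses the gradient. Pluripotent stem cells are known to lean on glycolysis, and their mitochondria mature as they differentiate. The 13 subunits that the mitochondrial genome encodes were looked for as well, but 0 of 13 had a row in the table, so only the nuclear part of each complex is described. NDUFA4 was kept with complex I by its name, although its protein is now placed in complex IV.

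RNA-SEQ was performed on H1 cells, a human embryonic stem cell line, after 2 days of hematopoietic differentiation on mAGM-S3, a mouse stromal line, and human cells were sorted as TRA-1-85+ in all 4 libraries. The control library came from wild type cells, and the R-spondin2 library from wild type cells given R-spondin2, a secreted enhancer of WNT signalling, at 20 ng/mL for the first day. The other 2 libraries came from LGR4-/- cells, labelled as lacking a receptor for R-spondins, 1 from each of 2 numbered lines called clone 1 and clone 2 here, with no R-spondin2 named in their labels. Control and R-spondin2 thus have 1 library each, and the 2 clones are separate lines, so every difference from control rests on the same single control library.

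Levels are given in FPKM, in which the fragments of a gene are divided by transcript length and by all mapped fragments. Differences are given in log2(FPKM + 1), where the added 1 shrinks differences of low genes. LGR4 stood at 21.8 FPKM in control, 24.3 with R-spondin2, 7.40 in clone 1 and 13.95 in clone 2, so its RNA was lower in both clones but present. Depth estimated from the low values was 8850000 to 9040000 reads per library. The cell type markers differed between the libraries. All 5 of 5 pluripotency markers were higher in both clones, with a summed level of 771 FPKM in control, 564 with R-spondin2, 1441 in clone 1 and 1327 in clone 2. All 8 of 8 primitive streak and mesoderm markers were lower in both clones, with sums of 1116, 1464, 402 and 619 FPKM in the same order. Of the definitive endoderm markers, with sums of 56.2, 58.3, 35.5 and 38.8 FPKM, SOX17 was lower in the clones by -0.97 and -0.77 and FOXA2 higher by 0.36 and 0.33. Summed neuroectoderm markers stood at 0.48 to 1.01 FPKM with SOX1 at 0 to 0.03, and summed hemato-endothelial markers at 4.25 to 4.71 FPKM with CDH5 at 0 to 0.05. Summed fibroblast markers stood at 130 FPKM in control, 178 with R-spondin2, 87.0 in clone 1 and 108 in clone 2, of which COL1A2 gave most, while DCN stood at 0.03 to 0.27, and 3 of the 4 of these markers kept were lower in both clones. The part of these markers in the differences reported here was not tested. In these bulk libraries fewer cells of a type and less RNA per cell cannot be told apart.

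Together the 64 genes held 5276 FPKM in control, 5124 with R-spondin2, 5702 in clone 1 and 5669 in clone 2, which was 1.21%, 1.18%, 1.31% and 1.30% of all FPKM. Of the 64 genes 60 passed the filter of a mean of at least 1 FPKM, and the 4 that did not were the tissue-restricted complex IV isoforms COX4I2, COX6A2, COX7A1 and COX8C. The levels of the 60 spanned a wide range within complexes I, III and IV, and a narrower one in complex II, from 29.1 to 51.2 FPKM in control. In complex I the highest gene was NDUFS5 and the lowest NDUFA5. In complex II SDHD was highest and SDHA lowest in control, in complex III UQCRH was highest and UQCRB lowest, and in complex IV COX6B2 was the lowest gene kept and COX7C the highest, also of all 64 in every library. The plot of levels by gene shows each gene in the 4 libraries. In complex II the order changed, with SDHB highest with R-spondin2 and SDHC lowest in clone 1.

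**Figure D1:**
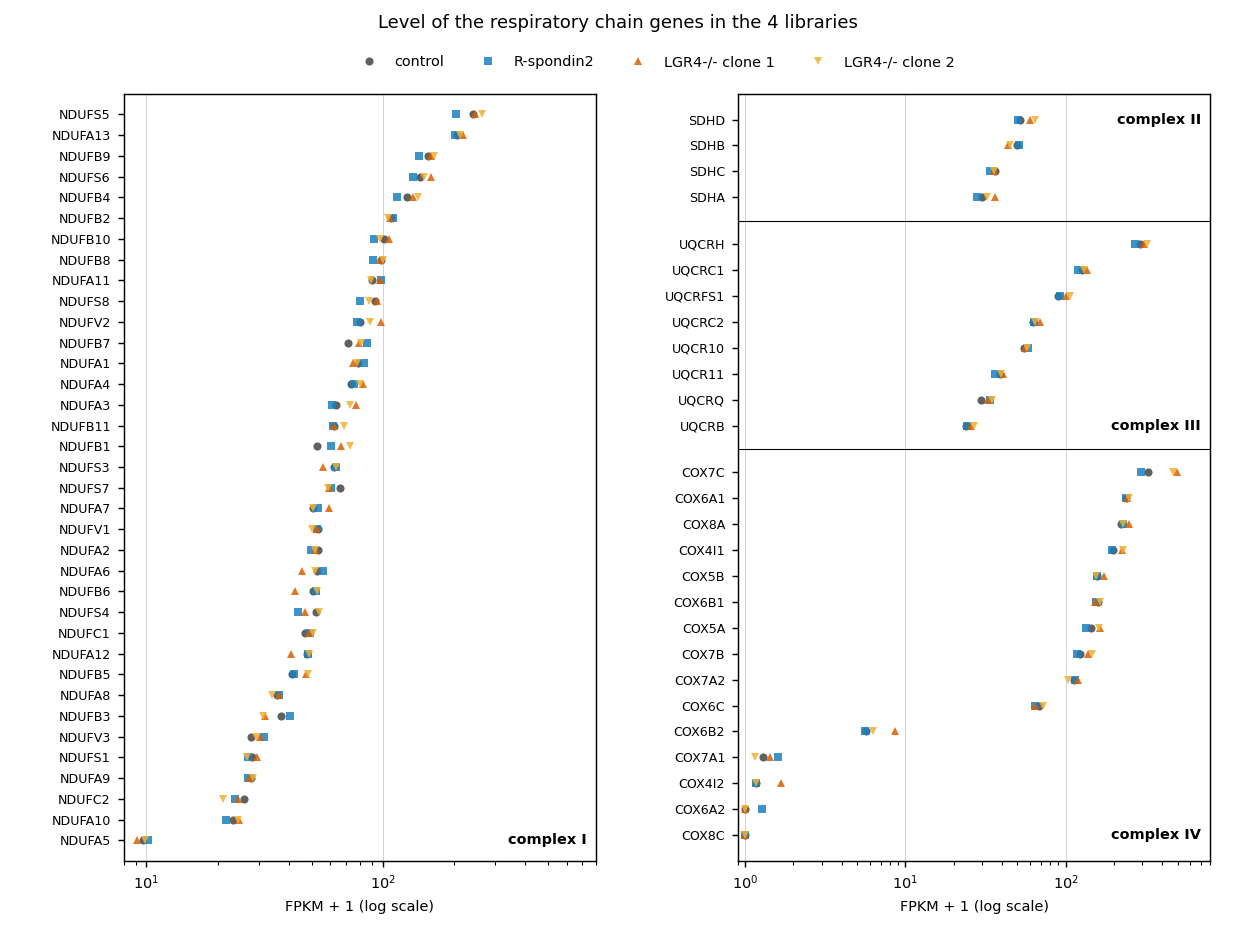
Level of the genes in FPKM + 1 on a log axis, 1 point per library, genes sorted by mean level within each complex. The points of a gene lie close together beside the spread between genes, COX7C stands apart to the right in both LGR4-/- clones (496 and 468 FPKM against 328 in control), and 4 complex IV isoforms lie near 0.

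As a group the respiratory chain genes differed little between the libraries. With R-spondin2 the median difference from control of the 60 genes was -0.03, with 26 higher and 34 lower, while the median of all 12697 genes kept was -0.01. In clone 1 the median was 0.08, with 40 higher and 20 lower, and in clone 2 it was 0.04, with 42 higher and 18 lower, against 0.02 over all genes in each clone. Over all genes 47.8% were higher than control with R-spondin2, 53.5% in clone 1 and 53.2% in clone 2. The differences of the 60 genes spread less than those of all genes: their SD was 0.10 with R-spondin2, 0.17 in clone 1 and 0.14 in clone 2, where all genes gave 0.21, 0.41 and 0.32. All genes were not matched to the members by level, and the part of level in this spread was not tested. Among genes with 1 transcript whose reads could be estimated, the members had a median of 663 reads in control and all genes 315. Between the 2 clones themselves the 60 genes had a median difference of 0.00 and an SD of 0.13.

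Few of these genes reached 1.5-fold, and the shares of all genes given beside the counts were not matched for level either. With R-spondin2, 0 of 60 did, where 2% of all genes kept did. In clone 1, 2 of 60 did, COX7C and COX6B2, where the background was 11.6%. In clone 2, 0 of 60 did, against 7.03% of all genes. The mean of the clones gave 0 of 60 against a background of 8.5%, and clone 2 against clone 1 gave 0 of 60 against 2.41%. By direction alone, 32 of the 60 stood above control in both clones and 10 below it in both, where 42.5% and 35.5% of all genes did. These 32 were 15 of 37 in complex I, 2 of 4 in complex II, 8 of 8 in complex III and 7 of 11 in complex IV.

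No member passed limma's test at an adjusted p of 0.05, neither for the LGR4-/- clones nor for R-spondin2, and 0% of all genes passed in either comparison. At an unadjusted limma p under 0.05 there were 9 members of 60 for the clones, where 18.4% of all genes stood, and 2 of 60 for R-spondin2, where 3.79% did. The 9 were COX7C, NDUFB1, COX4I1, COX7B, NDUFA3, UQCRFS1, NDUFB3, SDHD and COX5A, of which NDUFB3 was lower in the clones, and the 2 were NDUFB7, which was higher, and NDUFS5, which was lower. The fit had 1 residual degree of freedom, from the difference between the 2 clones, and it assumed that the single control and R-spondin2 libraries vary by as much.

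**Figure D2:**
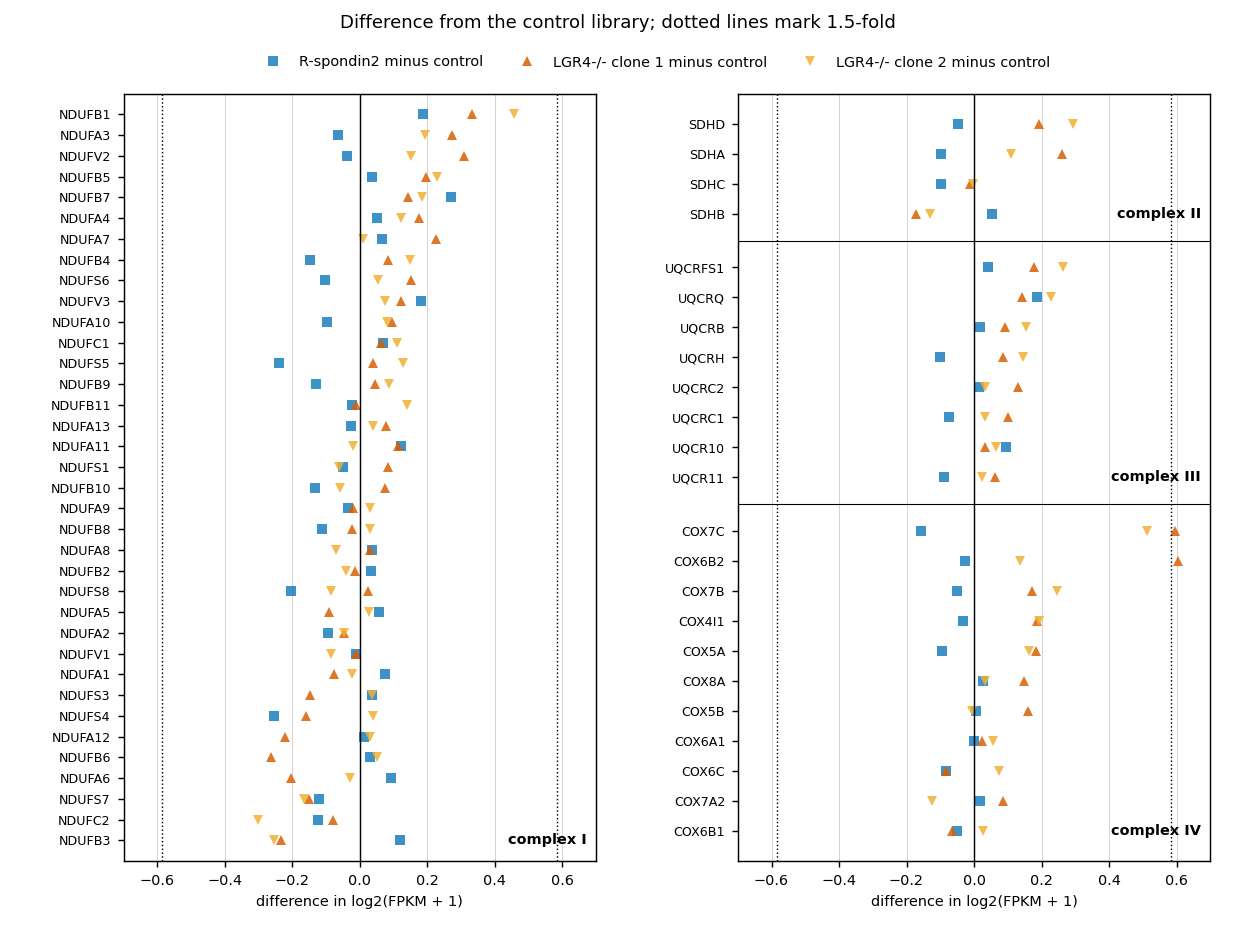
Difference from the control library in log2(FPKM + 1) for genes that passed the filter, by complex, with 1 point per library and dotted lines at 1.5-fold. All 8 genes of complex III lie to the right of 0 in both clones, COX7C and COX6B2 reach the dotted line in clone 1, and no R-spondin2 point does.

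Levels were also summed in FPKM by complex. Complex I summed to 2654 FPKM in control, 2579 with R-spondin2, 2745 in clone 1 and 2752 in clone 2. Complex II summed to 164, 160, 171 and 174 FPKM in that order, complex III to 711, 693, 763 and 775 FPKM, and complex IV to 1747, 1693, 2023 and 1968 FPKM. With R-spondin2 every complex thus stood between 96.9% and 97.5% of control, also complex III, where 5 of 8 genes were higher than control. The highest genes weigh most in these sums. NDUFS5 in complex I, UQCRH in complex III and COX7C in complex IV stood at 84.7%, 93.1% and 89.6% of control with R-spondin2. In the clones the sums stood above control in every complex, least in complex I at 103% and 104% and most in complex IV at 116% and 113%. COX7C alone accounted for a large share of the latter: without it complex IV stood at 98.6% of control with R-spondin2, 108% in clone 1 and 106% in clone 2. No test was made of these sums.

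**Figure D3:**
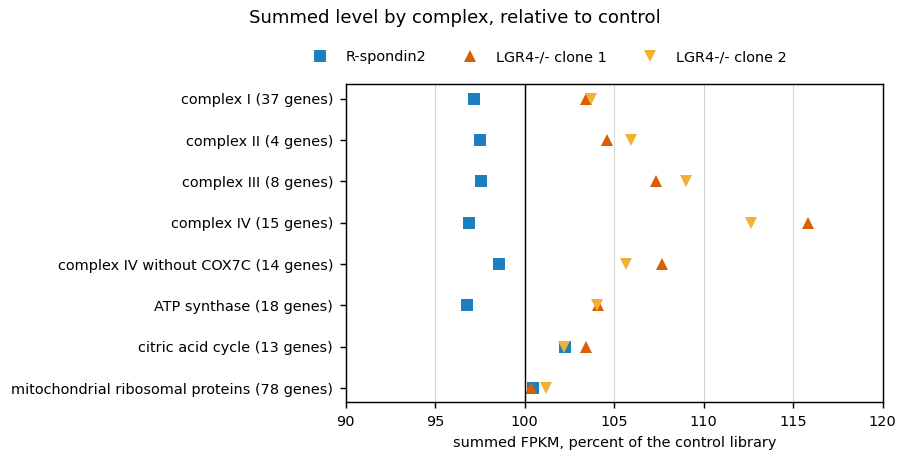
Summed FPKM of each complex and of 3 comparison lists as percent of the control library (axis from 90 to 120 percent), 1 point per library. R-spondin2 lies at 96.9 to 97.5 percent for the 4 complexes, and the 2 clones lie above 100 percent throughout, furthest for complex IV, which drops to 108 and 106 percent without COX7C.

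Complex I has 7 nuclear core subunits, which form its catalytic arm, and the rest are accessory. The summed level of the 7 core genes was 426 FPKM in control, 404 with R-spondin2, 437 in clone 1 and 419 in clone 2. With R-spondin2 6 of 7 were lower, with a median difference of -0.05, where 47.8% of all genes kept were higher. In the clones the 7 showed no common direction: 1 of 7, NDUFV2, was higher in both and 2 of 7, NDUFS7 and NDUFV1, were lower in both.

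NDUFV1, which binds NADH and the flavin, stood at 52.3 FPKM in control, 51.9 with R-spondin2, 51.9 in clone 1 and 49.2 in clone 2. Its partner NDUFV2, which carries an iron-sulfur cluster, stood at 78.8, 76.8, 97.8 and 87.6 FPKM in that order. For NDUFV2 the clones lay above control by 0.31 and 0.15. NDUFS1, the largest iron-sulfur subunit, stood at 26.9, 25.9, 28.5 and 25.7 FPKM, with the clones on either side of control. NDUFS3 stood at 61.1, 62.6, 55.1 and 62.7 FPKM, with clone 1 apart from the other libraries. NDUFS7, which carries the last cluster before the quinone, stood at 65.0, 59.7, 58.5 and 57.9 FPKM, and control was the highest library. NDUFS8, another iron-sulfur subunit, stood at 91.5, 79.4, 93.2 and 86.2 FPKM, and R-spondin2 was the lowest library with a difference of -0.20 from control.

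Among the accessory subunits of complex I the 30 genes had median differences of 0.02 with R-spondin2, 0.04 in clone 1 and 0.04 in clone 2. NDUFB1, a small subunit of the distal membrane arm, stood at 52.0 FPKM in control, 59.4 with R-spondin2, 65.8 in clone 1 and 71.8 in clone 2. Control was thus its lowest library, and the differences of 0.33 and 0.46 in the clones were the largest of complex I (mean 0.40, SE 0.09, limma adjusted p = 0.121). NDUFB3, another membrane arm subunit, stood at 36.2, 39.4, 30.6 and 30.2 FPKM, the lowest mean difference of the clones among all members at -0.24 (SE 0.09, limma adjusted p = 0.243). NDUFC2 stood at 24.9, 22.8, 23.5 and 20.0 FPKM, lower than control in all 3 other libraries, and its difference of -0.30 in clone 2 was the lowest of any member.

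With R-spondin2 the largest rise and the largest fall of any member were in complex I. NDUFB7 stood at 70.5 FPKM in control and 85.2 with R-spondin2, against 78.1 and 80.3 in the clones, so all 3 other libraries lay above control, and R-spondin2 by the most at 0.27 (SE 0.09, limma adjusted p = 0.992). NDUFS4, a subunit needed for the stability of the NADH-binding arm, stood at 51.5 FPKM in control and 43.0 with R-spondin2, a difference of -0.25, against 46.0 and 52.9 in the clones. NDUFS5, which stood at 239 FPKM in control and 202.5 with R-spondin2, was next with -0.24, against 245 and 261 in the clones. NDUFV3 was higher with R-spondin2 by 0.18, at 30.5 against 26.8 FPKM in control, and stood at 29.2 and 28.2 FPKM in the clones. NDUFB1 and UQCRQ, the latter of complex III, were higher with R-spondin2 by slightly more, at 0.19 each. GENCODE lists 6 pseudogenes named after NDUFS5, and how reads shared with such copies were counted is not given in the sources used here.

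Some accessory genes differed mainly between the 2 clones. NDUFB6 stood at 49.9 FPKM in control, 51.0 with R-spondin2, 41.4 in clone 1 and 51.7 in clone 2, a difference between the clones of 0.32, the largest upward one of any member. NDUFA12 stood at 46.8, 47.2, 40.0 and 47.8 FPKM, and clone 1 was again apart, with clone 2 higher by 0.25. NDUFS4 differed between the clones by 0.20. NDUFA7 stood at 49.7, 52.1, 58.3 and 50.0 FPKM and was lower in clone 2 than in clone 1, by -0.22 on the log2 scale, as NDUFC2 was. These genes were named as among the largest differences between the clones, and the 37 genes of complex I had a median of -0.01 and an SD of 0.13 there. NDUFA5, the lowest gene of complex I with 12 pseudogenes named after it, stood at 8.72, 9.12, 8.12 and 8.91 FPKM.

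Complex II, succinate dehydrogenase, is wholly nuclear-encoded and belongs to the citric acid cycle as well. Its catalytic flavoprotein SDHA stood at 29.1 FPKM in control, 27.1 with R-spondin2, 35.1 in clone 1 and 31.5 in clone 2. The iron-sulfur subunit SDHB went the other way, at 48.5, 50.4, 42.9 and 44.3 FPKM, so that both clones were below control. Of the 2 membrane anchors, SDHC stood at 35.1, 32.7, 34.8 and 35.0 FPKM, and SDHD at 51.2, 49.6, 58.7 and 63.0 FPKM. SDHD differed in the clones by 0.19 and 0.29 (mean 0.24, SE 0.09, limma adjusted p = 0.244). The 4 subunits, present in equal number in the protein complex, thus had unequal RNA levels and no common direction. GENCODE lists 3 pseudogenes named after SDHA, 3 after SDHD and 4 after SDHC.

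Complex III, the cytochrome bc1 complex, was the only one of the 4 in which every member stood above control in both clones. The differences were small, from 0.03 to 0.18 in clone 1 with a median of 0.10, and from 0.02 to 0.26 in clone 2 with a median of 0.11. All genes kept had a median of 0.02 in each clone, and 42.5% of them stood above control in both. In clone 2 the counting intervals of UQCR11, UQCRC1, UQCRC2 and UQCRQ, of the kind described further below, held 0. With R-spondin2 5 of 8 were higher and 3 of 8 lower, with a median of 0.02, where 47.8% of all genes kept were higher. The Rieske iron-sulfur protein UQCRFS1, which takes electrons from ubiquinol, stood at 88.2 FPKM in control, 90.8 with R-spondin2, 99.9 in clone 1 and 106 in clone 2. It had the largest clone differences of the complex, 0.18 and 0.26 (mean 0.22, SE 0.08, limma adjusted p = 0.235).

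The core proteins UQCRC1 and UQCRC2 form the part of complex III that faces the matrix. UQCRC1 stood at 126, 119, 135 and 129 FPKM in control, R-spondin2, clone 1 and clone 2, and UQCRC2 at 61.96, 62.6, 67.9 and 63.4 FPKM. For both, clone 1 was the highest library, and clone 2 exceeded control by 0.03 for each. UQCRH, the hinge protein that helps bind cytochrome c1 to cytochrome c, was the highest of the complex at 291, 271, 309 and 322 FPKM. Of the small subunits, UQCRQ stood at 28.6, 32.7, 31.7 and 33.7 FPKM and UQCRB at 23.0, 23.4, 24.6 and 25.7 FPKM, with control the lowest library for both. UQCR10 lay between 53.9 and 57.6 FPKM and UQCR11 between 35.5 and 39.5 FPKM, where R-spondin2 was the highest library for the former and the lowest for the latter. No row was found for UQCRHL, a copy of UQCRH, and GENCODE lists 4 pseudogenes named after UQCRH.

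Promoters were read because the members of complex III stood on the same side of control in both clones. RefSeq (GRCh38.p14) gave a promoter for 54 of the 64 genes, 7 of them in complex III, as the window from 250 bases before to 50 after the start of the gene. Both strands were searched for 7 short motifs, among them that of NRF1 (nuclear respiratory factor 1; GCGC, any base, then TGCGC) and that of GABPA (also called NRF2, CCGGAAGT), factors known for binding promoters of respiratory genes. The NRF1 letters were present in 13 of 54 members (24.1%), in 6.29% of 27305 RefSeq promoters and in 11.8% of the 10352 promoters of genes that passed the filter. They were present in 4 of 7 promoters of complex III (UQCRC1, UQCRFS1, UQCR10 and UQCR11), 6 of 32 in complex I, 2 of 3 in complex II and 1 of 12 in complex IV. The match in complex IV was COX8C, which did not pass the filter. The 54 members also include COX6A2, which did not pass it. The GABPA letters were present in 8 of 54 (14.8%) against 4.43% of all and 8.86% of those kept, and the YY1 letters AAGATGGCG in 7 of 54 (13.0%) against 1.85% and 3.99%. The SP1 letters GGGCGG were present in 57.4% of the members, 44.6% of all and 71.3% of those kept. CCAAT was found in 31.5%, 35.7% and 36.7%, and TATAAA in 11.1%, 11.95% and 5.30%. These shares were not tested.
The 150 bases before the start are shown for 3 complex III genes, 5′ to 3′ on the strand of the gene, since they hold NRF1 letters, with matches of NRF1 or GABPA in capitals, none of which overlap. The stretches are chr3:48609647-48609796 (minus strand) for UQCRC1, chr19:29213152-29213301 (minus strand) for UQCRFS1 and chr19:1605463-1605612 (minus strand) for UQCR11.
UQCRC1: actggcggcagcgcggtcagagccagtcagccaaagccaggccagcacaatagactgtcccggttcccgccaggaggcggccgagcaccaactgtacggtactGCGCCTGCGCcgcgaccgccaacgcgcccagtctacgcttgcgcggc
UQCRFS1: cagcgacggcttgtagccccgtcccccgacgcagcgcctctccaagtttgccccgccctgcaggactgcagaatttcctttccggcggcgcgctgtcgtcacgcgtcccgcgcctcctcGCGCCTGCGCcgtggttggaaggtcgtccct
UQCR11: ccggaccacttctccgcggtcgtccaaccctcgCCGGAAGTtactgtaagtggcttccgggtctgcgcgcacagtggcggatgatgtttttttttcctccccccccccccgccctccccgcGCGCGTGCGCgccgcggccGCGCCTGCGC
UQCRC1 has its NRF1 match 47 to 38 bases before the start and UQCRFS1 31 to 22 bases before it. UQCR11 has NRF1 matches at 29 to 20 and at 10 to 1 bases before the start, and a GABPA match at 117 to 110 bases before it. A match is a run of letters, not a shown binding site, and the 3 genes differed in the clones by amounts from 0.02 (UQCR11 in clone 2) to 0.26 (UQCRFS1 in clone 2).

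Complex IV, cytochrome c oxidase, held the members with the largest differences in the clones. Its 11 genes kept had medians of -0.03 with R-spondin2, 0.16 in clone 1 and 0.07 in clone 2. With R-spondin2 3 were higher and 8 lower, and in each clone 9 were higher and 2 lower. Of all genes kept 47.8% were higher with R-spondin2, 53.5% in clone 1 and 53.2% in clone 2. COX7C, a small single-pass subunit of the complex, stood at 328 FPKM in control, 294 with R-spondin2, 496 in clone 1 and 468 in clone 2. The clones lay at 151% and 143% of control, and R-spondin2 at 89.6%. The differences were 0.59 and 0.51 in the clones (mean 0.55, SE 0.06, limma adjusted p = 0.0755) and -0.16 with R-spondin2 (limma adjusted p = 0.992). No gene of the 12697 had a smaller adjusted p for the clones, and 71 genes had this value, so COX7C shared it with many others and ranked 55 by unadjusted p. COX7C passed the adjusted threshold under 2 alternatives, at 0.0133 with a filter of 5 FPKM, where 497 genes passed, and at 0.0184 after rescaling by median ratio, where 548 did. After that rescaling its difference in clone 1 was 0.57, under 1.5-fold. Across all the alternatives its adjusted limma p ran from 0.0133 to 0.344. GENCODE lists 1 pseudogene named after COX7C.

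The other complex IV genes of the common isoforms showed smaller differences. COX4I1, the largest nuclear subunit, stood at 197 FPKM in control, 193 with R-spondin2, 225 in clone 1 and 226 in clone 2, a mean clone difference of 0.19 (SE 0.06, limma adjusted p = 0.208). COX5A stood at 143, 133, 162 and 160 FPKM (mean 0.17, SE 0.07, adjusted p = 0.264), and COX7B at 122, 118, 137 and 145 FPKM (mean 0.21, SE 0.07, adjusted p = 0.23). For each of these 3 both clones lay above control, as they did for 42.5% of all genes kept. COX5B, the zinc-binding subunit, stood at 155, 156, 174 and 154 FPKM, and COX8A at 222, 226, 246 and 227 FPKM, with clone 1 highest and clone 2 near control. COX7A2 stood at 111, 113, 118 and 102 FPKM, with the clones on either side. COX6A1 (237, 237, 241 and 247 FPKM), COX6B1 (159, 154, 152 and 162 FPKM) and COX6C (67.2, 63.4, 63.4 and 70.9 FPKM) had clone 2 as their highest library. GENCODE lists 17 pseudogenes named after COX6C, 7 after COX6B1 and 6 after COX5B, so their levels are less certain.

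The promoter of COX7C is shown because its gene had the largest mean difference of the clones. On reading it, the letters ACTACA, any base, then TTCCCA, a core of the motif of the factor ZNF143, were seen in it and then counted in all promoters on both strands. They were present in 2 of 54 members, COX7C with 2 copies and COX7B with 1 copy, in 0.754% of 27305 promoters and in 1.51% of the 10352 promoters of genes kept. At least 2 copies were present in 7 of the 27305 promoters. Because this motif was chosen after the sequence had been read, the share is a description only. The 150 bases before the start of COX7C (chr5:86617791-86617940, plus strand) and COX7B (chrX:77899318-77899467, plus strand) are given 5′ to 3′ with these letters in capitals, from RefSeq on GRCh38.p14.
COX7C: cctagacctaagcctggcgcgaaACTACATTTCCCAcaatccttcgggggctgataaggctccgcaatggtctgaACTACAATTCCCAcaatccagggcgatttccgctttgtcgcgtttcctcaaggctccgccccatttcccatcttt
COX7B: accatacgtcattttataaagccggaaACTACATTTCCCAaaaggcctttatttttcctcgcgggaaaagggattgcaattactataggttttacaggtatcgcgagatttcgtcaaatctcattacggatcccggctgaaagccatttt
In COX7C the copies lie 127 to 115 and 75 to 63 bases before the start, and in COX7B the copy lies 123 to 111 bases before it.

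Complex IV has isoforms that are known from heart, skeletal muscle, lung and testis. COX6B2, known from testis, was the only one of these above 1 FPKM, at 4.68 FPKM in control, 4.57 with R-spondin2, 7.64 in clone 1 and 5.24 in clone 2. It made up 2.86%, 2.89%, 4.79% and 3.13% of the summed level of COX6B1 and COX6B2, so clone 1 stood apart from the other 3 libraries, by 0.61 from control and with clone 2 lower than clone 1 by -0.47. The lung and hypoxia isoform COX4I2 stood at 0.17, 0.17, 0.68 and 0.17 FPKM, which implied 1, 1, 4 and 1 reads. The muscle isoform COX7A1 stood at 0.29, 0.60, 0.44 and 0.15 FPKM (2, 4, 3 and 1 reads). The muscle isoform COX6A2 implied 1 read with R-spondin2 and 0 elsewhere, and the testis isoform COX8C 0 reads in every library, where 3 reads would be worth up to 0.64 FPKM. No difference in these 4 was detectable at this depth. No row was found for COX7B2. NDUFA4L2, the hypoxia-linked relative of NDUFA4, stood at 1.24 FPKM in control, 2.82 with R-spondin2, 0.35 in clone 1 and 0.45 in clone 2 (13, 29, 4 and 5 reads), while NDUFA4 stood at 72.4, 75.0, 81.9 and 78.9 FPKM. The log2 ratio of the reads of NDUFA4L2 with R-spondin2 to control was 1.19, with a 95% interval of 0.20 to 2.26. NDUFA4L2 passed the filter of a mean of at least 1 FPKM only through the R-spondin2 library. No interval was made for the clones, which had under 10 reads each.

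Counting error was set beside the differences for 31 members with 1 transcript of known length and at least 10 implied reads in each library. The intervals are exact Clopper-Pearson 95% intervals of the ratio of implied reads, cover counting error only and say nothing of the spread between cultures. For R-spondin2 the interval left out 0 for 3 of 31: NDUFB7 (0.27, 0.06 to 0.49), NDUFS8 (-0.21, -0.37 to -0.04) and COX7C (-0.16, -0.25 to -0.06). Over all genes with such an interval it did for 23.6%. For clone 1 it did for 13 of 31 and for clone 2 for 7 of 31, all with the clone higher. Over all genes 43.5% did in clone 1, 23.6% with the clone higher, and 35.4% did in clone 2, 19.3% with the clone higher. The 6 members that did so in both clones were NDUFA3, NDUFA4, NDUFB1, UQCRFS1, COX5A and COX7C, against 14.3% of all genes above control in both. The members had a median of 663 reads in control and all genes with an interval 315.

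COX7C rested on 1975 reads in control, 1732 with R-spondin2, 2929 in clone 1 and 2761 in clone 2, and its intervals in the clones were 0.51 to 0.68 and 0.43 to 0.60. NDUFB1 rested on 196 reads in control, and its intervals of 0.06 to 0.62 and 0.19 to 0.74 were wide. UQCRFS1, on 2769 reads in control, had intervals of 0.11 to 0.25 and 0.19 to 0.34. COX6B2 rested on 70, 67, 113 and 77 reads, and its ratio of 0.72 in clone 1 had an interval of 0.28 to 1.17. Between the clones the interval left out 0 for 8 of 31 genes, where 25% of all genes did, with clone 2 higher in 3 (NDUFS3, UQCRFS1 and COX6C) and lower in 5 (NDUFV2, COX5B, COX6B2, COX7A2 and COX7C). The 8 of 31 between the 2 lines of the same genotype was near the share of all genes. Against control the counts were 13 of 31 in clone 1 and 7 of 31 in clone 2.

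**Figure D4:**
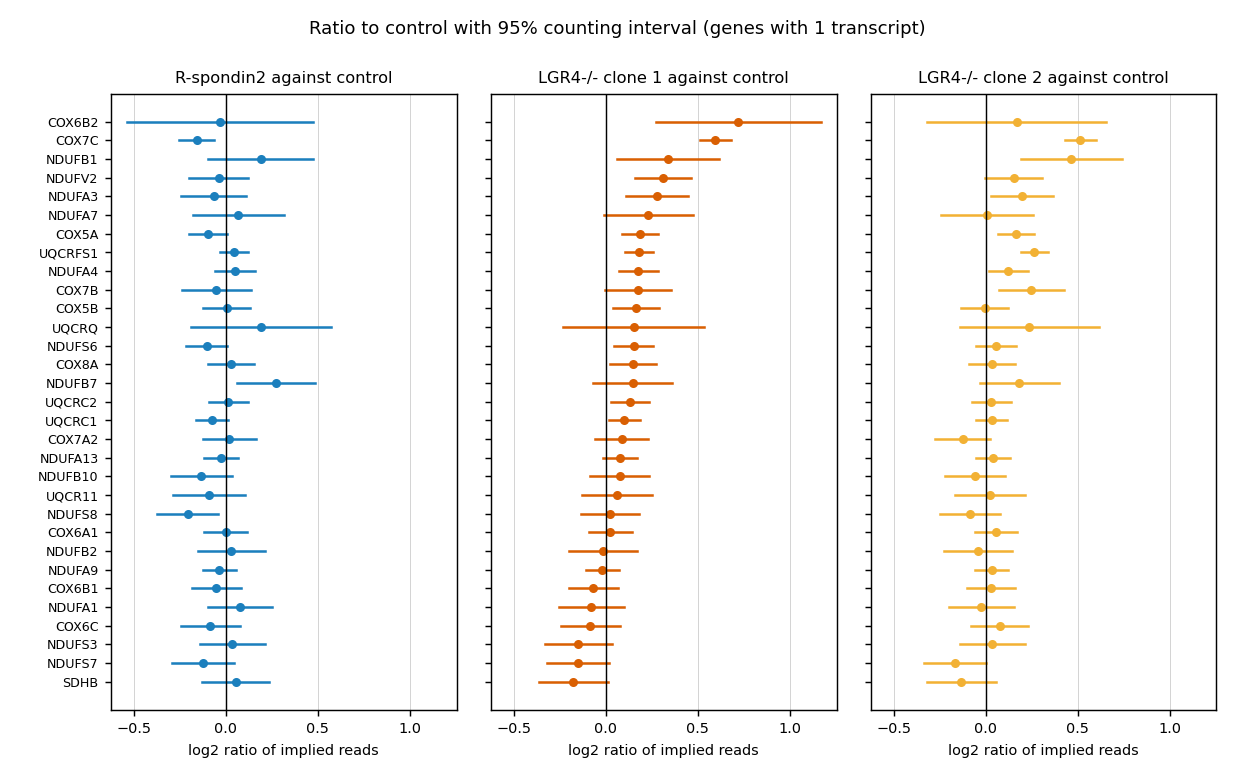
Log2 ratio of implied reads to control with its exact 95% counting interval for 31 members with 1 transcript, in R-spondin2, clone 1 and clone 2, sorted by clone 1. The interval of COX7C lies clear of 0 in all 3 panels, below it with R-spondin2 (-0.25 to -0.06) and above it in the clones (0.51 to 0.68 and 0.43 to 0.60).

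The partners of these complexes were set beside them by lists. ATP synthase, complex V, had 18 of 18 genes kept, with medians of -0.04, 0.05 and 0.02 in R-spondin2, clone 1 and clone 2 and a summed level at 96.8%, 104% and 104% of control, much like complex I. Its largest differences in the clone mean were ATP5I at 0.27 and ATP5E at -0.17, and 0 of 18 reached 1.5-fold in any library. Of all genes kept 2% did with R-spondin2, 11.6% in clone 1 and 7.03% in clone 2. The assembly factors of complex I (16 of 16 kept) had medians of -0.03, -0.04 and 0.00, with NDUFAF7, a methyltransferase, the highest in both clones at 0.50 and 0.35. Those of complex II (4 of 4) had medians of 0.10, 0.09 and 0.06, and those of complex III (6 of 6) of -0.07, -0.06 and 0.00, with BCS1L, which inserts the Rieske protein, the lowest in both clones at -0.35 and -0.33, while UQCRFS1 was higher. Those of complex IV (21 of 21) had medians of -0.07, -0.05 and 0.09. With R-spondin2 17 of 21 were lower, where 47.8% of all genes kept were higher. Among these 21 genes the copper chaperone COX17 was highest with R-spondin2 at 0.37 and SURF1 lowest at -0.36. In the clone mean TACO1, the activator of COX1 translation, was lowest at -0.36.

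Of 5 carriers and subunits outside the naming rule, NDUFA4L2 was past 1.5-fold in all 3 libraries, on the few reads given above. The differences were 0.77 with R-spondin2, -0.73 in clone 1 and -0.63 in clone 2. NDUFA4L2 passed the filter only through its level in the R-spondin2 library, so these differences are given as values only. The other 4 did not reach 1.5-fold. CYC1, the cytochrome c1 of complex III, stood at 102 FPKM in control, 103 with R-spondin2, 105 in clone 1 and 105 in clone 2, and CYCS, cytochrome c, at 42.9, 44.9, 44.8 and 44.9 FPKM. CYC1 thus differed by 0.04 and 0.05 in the clones, on the side of the other complex III genes. NDUFAB1, the acyl carrier of complex I, stood at 88.2, 87.5, 102 and 85.7 FPKM, and COX7A2L, which helps join complexes III and IV, at 63.0, 63.5, 54.2 and 58.1 FPKM. Of 15 nuclear regulators of respiratory genes 14 were kept, with medians of -0.04, 0.07 and 0.04. NRF1 itself stood at 7.43, 7.85, 7.99 and 9.32 FPKM, GABPA at 11.2, 12.8, 10.9 and 11.5 FPKM, TFAM at 19.7, 19.8, 21.9 and 20.3 FPKM, and ESRRA, lowest of the list in both clones, at 22.2, 20.9, 16.7 and 20.8 FPKM. None of these lists had a gene past limma's adjusted threshold.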

How the data were processed

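The libraries were made with the Illumina TruSeq RNA kit from total RNA, per the labels. The authors deposited FPKM for 17894 genes in 4 libraries, given to 2 decimals with NCBI gene identifiers. The submitters' processing notes name BWA, Bowtie, RSEM and the build hg19, and their roles and versions are not given in the sources used here. Since the values are FPKM and not counts, a count test planned for deposited counts was not run. The annotation columns deposited beside the values were not used for any result.

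Levels were compared as log2(FPKM + 1), the pseudocount of 1 following the study's heatmaps, with a filter that kept 12697 genes whose mean reached 1 FPKM. Differences were counted at 1.5-fold (0.58 on the log2 scale). limma 3.58.1 in R 4.3.3 was fitted over all genes kept with 3 groups and a trend in the prior variance, with Benjamini-Hochberg adjustment over all of them and a threshold of 0.05. Nothing in the labels says that the clones were separate cultures of one experiment or separate days. limma's SEs and p-values thus rest on the spread between these 2 libraries, pooled for each gene with a prior from all genes kept. The prior had 4.05 degrees of freedom and the gene's own spread 1. The script was tested on simulated data. To estimate depth, read totals were searched for the 1 that best turned low FPKM (below 0.6, transcripts under 1500 bases) into whole reads, with GENCODE release 29 lengths for 8068 genes with 1 transcript. The best total left 77.2% to 78.5% of such values no more than 0.2 from a whole number, against 43.6% to 46.6% with lengths shuffled among genes. Reads implied by FPKM, length and this depth gave exact Clopper-Pearson 95% intervals, which rest on that assumption. Promoters were RefSeq sequences of GRCh38.p14, not the build of the files, matched by gene ID at the first listed start.

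The members and lists were chosen with earlier results of these data known. The genes named were the 3 largest rises and falls in each comparison, members at 1.5-fold, the highest and lowest of each complex, the catalytic or cofactor-binding core genes, paired isoforms, and from the other lists genes with a direct role and the largest differences. The values of 1 member are not reported here on their own, although it entered the counts and sums. Further members were named with their complex after their values had been seen. Settings varied were the pseudocount (0.1), the filter (none, or 5 FPKM), rescaling by median ratio or to the same total, a 2-fold threshold, limma without the trend, each clone left out and, added after seeing the data, complex IV without COX7C. Computations used Python 3.11.15 with numpy 2.4.6, pandas 2.3.3, scipy 1.17.1 and matplotlib 3.10.9.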

Additional observations from a re-analysis of the deposited data

How the results depend on the processing

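The medians of all members kept their sign in each comparison with control under every pseudocount, filter and rescaling tried. The count of members at 1.5-fold in clone 1 was 2, and it was 1 after rescaling by median ratio, when COX7C at 0.57 was under the threshold, and 0 at 2-fold. In the mean of the clones it was 0, and with 1 clone left out it ran from 0 to 2, with 2 when clone 2 was left out, while the median member difference ran from 0.04 to 0.08. limma called 0 members for the LGR4-/- clones, and 1 member, COX7C, with a filter of 5 FPKM and also after rescaling by median ratio. Over all genes limma called 0, 497 with that filter and 548 after that rescaling. The summed level of all members in the mean of the clones was 108% of control, and 106.3% after rescaling by median ratio. The median of complex I in the mean of the clones was 0.01 and -0.01 after that rescaling. The 8 of 8 members of complex III above control in both clones kept that count under the other pseudocount, the 2 other filters and the 2 rescalings. With 1 clone left out limma had no residual degrees of freedom, so that fit was not run. No paired analysis was possible because replicate numbers are given for the LGR4-/- clones only. What limits these results is the single control library, which every difference shares, and a depth of 8850000 to 9040000 estimated reads, which leaves a counting interval of 0.28 to 1.17 on the log2 scale for COX6B2 in clone 1.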

Other observations

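Mitochondrial gene groups outside the respiratory chain complexes were close to control. The 13 citric acid cycle genes had median log2 differences of 0.04 with R-spondin2, 0.03 in clone 1 and 0.07 in clone 2, and their summed level stood at 102%, 103% and 102% of control. The highest of them in the clone mean was SUCLA2, a subunit of the ADP-forming succinyl-CoA synthetase, at 27.8 FPKM in control, 30.2 with R-spondin2, 30.8 in clone 1 and 35.3 in clone 2, and the lowest was IDH3B at 50.4, 48.9, 46.2 and 43.7 FPKM. The 78 mitochondrial ribosomal protein genes had medians of 0.00, -0.00 and 0.02. Of these 78 genes 1 reached 1.5-fold, MRPS17 in clone 2, where 7.03% of all genes did. MRPS17 stood at 17.9 FPKM in control, 22.2 with R-spondin2, 25.5 in clone 1 and 30.8 in clone 2, differences of 0.29, 0.49 and 0.75. MRPL53, the lowest of the list in both clones, stood at 30.7, 26.4, 24.0 and 21.0 FPKM. None of these genes passed limma's adjusted threshold.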
